A study of Mus musculus with 4 samples.

Results

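The 10 genes described here encode the mechanosensory hair bundle of the inner ear hair cell (HC): *Tmc1*, *Tmc2*, *Tmie*, *Lhfpl5*, *Cdh23*, *Pcdh15*, *Myo7a*, *Ush1c*, *Espn* and *Loxhd1*. They were taken by gene symbol from the processed RNA-Seq table, which holds 23997 genes, and all 10 were found in it. The study compared the EGFP+ fraction of cochlear cells from Lgr5-EGFP-IRES-creERT2 mice (Lgr5+ progenitors) with that from Lgr6-EGFP-IRES-CreERT2 mice (Lgr6+ progenitors), all on the C57BL/6 strain and at postnatal day (P) 3. No treatment was given to the sorted cells, and both populations carry a reporter allele that also encodes CreERT2. By the labels each population has 2 libraries, but the table gives 1 combined FPKM, a fragment count scaled to transcript length and to library size, for each gene in each population. The spread between libraries is therefore unknown, no test was possible, and every difference below is one between 2 combined values.

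The hair bundle is a staircase of actin-filled stereocilia on the apical surface of the HC. When the bundle is deflected, tip links that join neighboring stereocilia pull on the mechanotransduction channel at the lower end of each link, and cations enter the cell. *Cdh23* encodes the upper and *Pcdh15* the lower cadherin of the tip link. *Tmc1* and *Tmc2* encode the pore-forming subunits of the channel, and *Lhfpl5* and *Tmie* encode membrane proteins that couple the channel to the tip link and are needed for its function. *Myo7a*, an unconventional myosin, and *Ush1c*, which encodes the scaffold protein harmonin, hold the upper end of the link. *Espn* encodes espin, which bundles the actin core, and *Loxhd1* encodes a stereocilia protein made of PLAT domains. Loss of most of these genes causes deafness in mice, and *Myo7a* is the usual marker of HCs in the cochlea. In the developing cochlea *Tmc2* is known as the early and *Tmc1* as the later of the channel genes. The supporting cells (SCs) from which both progenitor populations are drawn do not carry such bundles.

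All 10 genes reached 1 FPKM or more in either population. The highest values were those of *Espn*, *Lhfpl5* and *Ush1c*. The lowest were those of *Tmc1* and *Tmc2* in Lgr5+ progenitors and those of *Tmc2* and *Tmie* in Lgr6+ progenitors. In Lgr6+ progenitors 9 of the 10 genes had the higher value, and *Tmie* had the lower one. Summed over the 10 genes, expression was 563 FPKM in the Lgr5+ population and 823 FPKM in the Lgr6+ population, a 1.46-fold ratio.

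**Figure D1:**
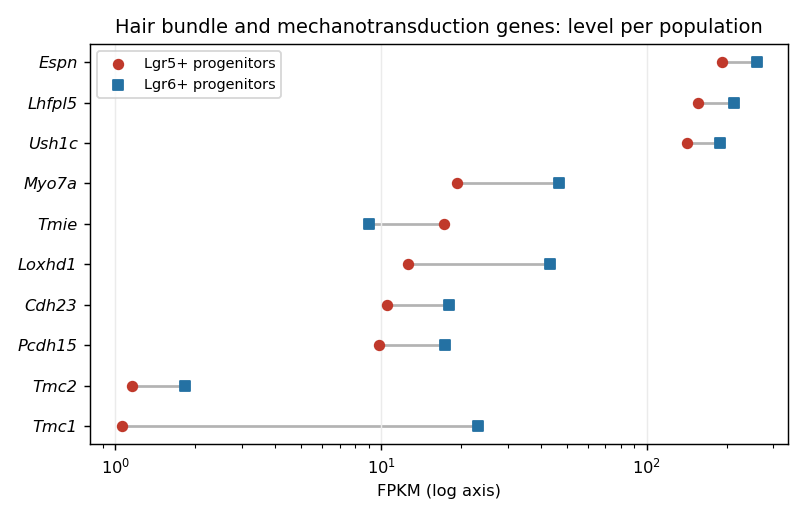
FPKM of the 10 hair bundle and mechanotransduction genes on a log axis, with a red circle for the combined value of Lgr5+ progenitors and a blue square for that of Lgr6+ progenitors; there are no error bars because each point is a single combined value. The blue square lies to the right for every gene other than *Tmie*, and the line is longest for *Tmc1*, from 1.06 to 23.1.

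The promoter sequences of *Tmc1*, the gene with the largest change, of *Tmie*, the gene with the lower value in Lgr6+ progenitors, and of *Espn*, the gene with the highest FPKM, are shown because the first pair lay at the ends of the range of CpG content among the members. RefSeq promoter windows of build GRCm38.p6 were matched by symbol for 8 of the 10 genes, and *Tmc2* and *Loxhd1* were not among them. Each sequence is the 250 bases before the annotated start, written 5′ to 3′ on the strand of the gene, with CG dinucleotides in capitals. The window of *Tmc1* lies at chr19:20954203-20954452 on the minus strand, that of *Tmie* at chr9:110880074-110880323 on the minus strand, and that of *Espn* at chr4:152152390-152152639 on the minus strand.
Tmc1: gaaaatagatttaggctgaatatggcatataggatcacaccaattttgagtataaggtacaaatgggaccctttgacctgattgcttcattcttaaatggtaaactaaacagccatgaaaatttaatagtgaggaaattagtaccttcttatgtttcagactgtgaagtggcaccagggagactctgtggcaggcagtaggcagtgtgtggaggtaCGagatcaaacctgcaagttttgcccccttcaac
Tmie: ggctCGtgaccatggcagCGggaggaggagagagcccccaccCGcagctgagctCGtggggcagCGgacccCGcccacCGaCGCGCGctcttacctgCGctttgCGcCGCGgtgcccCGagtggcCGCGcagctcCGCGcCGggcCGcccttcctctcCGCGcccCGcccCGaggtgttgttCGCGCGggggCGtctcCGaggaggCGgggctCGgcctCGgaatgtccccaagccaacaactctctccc
Espn: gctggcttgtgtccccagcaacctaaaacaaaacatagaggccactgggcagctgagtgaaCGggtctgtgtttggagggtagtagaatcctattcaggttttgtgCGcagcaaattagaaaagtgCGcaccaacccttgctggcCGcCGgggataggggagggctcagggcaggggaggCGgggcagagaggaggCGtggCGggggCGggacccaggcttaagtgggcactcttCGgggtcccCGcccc

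The window of *Tmc1* held 1 CG dinucleotide and had a GC content of 41.2%, and 18.8% of the 32851 windows of the RefSeq table held no more. The window of *Tmie* held 33 and had a GC content of 74.8%, and 4.03% of all windows held as many or more. The other 6 matched windows held from 5 to 24 CG dinucleotides, with 11 in that of *Espn* and 24 in that of *Lhfpl5*, against a median of 6 over all windows. CAGCTG, a palindromic E-box of the kind that basic helix-loop-helix factors bind, was found in the windows of *Tmie*, *Lhfpl5* and *Espn*, that is 3 of the 8, and in 13.0% of all windows. CATCTG, searched on both strands as CATCTG or CAGATG, was found in none of the 8 and in 14.4% of all windows. TATAAA, on either strand, was found in that of *Pcdh15* alone among the 8 and in 12.4% of all windows. GGGCGG, the GC box, was found on either strand in 5 of the 8 and in 32.7% of all windows. These matches describe the letters in a window and not the binding of a factor.

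The question that the comparison addresses is how progenitors with different abilities to form HCs differ in expression, and for these genes it asks how much HC-type transcript each sorted population held. The log2 change of a gene is the difference of log2(FPKM + 1) between the populations, positive where the Lgr6+ value is higher, and the pseudocount of 1 makes the change of weakly expressed genes look smaller than it is. By a threshold of 1.5-fold on this scale, 5 of the 10 genes were higher in Lgr6+ progenitors, namely *Tmc1*, *Loxhd1*, *Myo7a*, *Pcdh15* and *Cdh23*. Of the 13436 genes of the table that were kept, because they reached 1 FPKM in either population, 28.5% lay past the same threshold in that direction. *Tmie* alone was at least 1.5-fold higher in Lgr5+ progenitors, against 23.3% of kept genes. In either direction 6 of 10 genes passed, against 51.8% of all kept genes. These counts depend on the scaling. After quantile normalization 8 of the 10 genes and 25.5% of kept genes passed toward Lgr6+ progenitors, and *Tmie* and 25.5% of kept genes passed the other way. When both populations were scaled to the same sum of FPKM, 8 of the 10 genes and 37.2% of kept genes passed toward Lgr6+ progenitors, and *Tmie* and 16.5% of kept genes passed the other way. By any amount, 9 of the 10 genes and 51.7% of kept genes were higher in Lgr6+ progenitors. At 2-fold, 3 of the 10 were higher in Lgr6+ progenitors against 18.2% of kept genes, and 0 were higher in Lgr5+ progenitors against 11.7%. The median change of the 10 genes was 0.59, and that of all kept genes was 0.03. The threshold falls between *Tmc2*, *Espn*, *Lhfpl5* and *Ush1c*, with changes of 0.39 to 0.45, and *Cdh23*, with 0.73. Fewer cells of a type and less RNA per cell cannot be told apart in such sorted bulk samples.

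**Figure D2:**
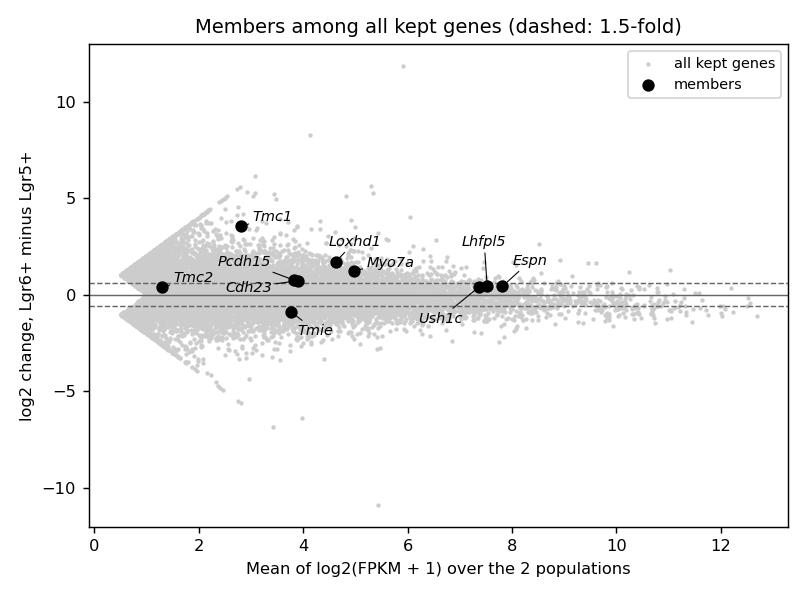
Change of each kept gene, as the difference in log2(FPKM + 1), Lgr6+ minus Lgr5+, against its mean log2(FPKM + 1); grey points are the 13436 kept genes, black points the 10 members, and dashed lines mark 1.5-fold. *Tmc1* lies highest of the members at 3.55, *Tmie* is the only member under 0, and *Espn*, *Lhfpl5* and *Ush1c* lie together at the right, just over 0.4.

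*Tmc1* (chr19:20783458-20954202, positions being those of the table read as GRCm38) was at 1.06 FPKM in the Lgr5+ population and at 23.1 FPKM in the Lgr6+ population, a 21.8-fold ratio and a log2 change of 3.55. *Tmc2* (chr2:130195194-130264445) was at 1.16 and 1.82 FPKM, a log2 change of 0.39. The channel genes were thus at like levels in Lgr5+ progenitors, where the FPKM of *Tmc1* was 0.916 times that of *Tmc2*, and 12.7 times apart in Lgr6+ progenitors. Among kept genes ranked by FPKM, *Tmc1* stood at place 11822 in Lgr5+ progenitors and at place 3714 in Lgr6+ progenitors, while *Tmc2* stood at 11693 and 11666. Both low values rest on little material. Low values of the table were taken to come in discrete steps because fragments are whole, with the most frequent low value of each population as its step. On that reading the value of *Tmc1* corresponds to 32 steps in Lgr5+ progenitors and 2220 in Lgr6+ progenitors when the longest annotated coding transcript is used. For *Tmc2* the numbers were 27 and 136. Whether a step is a fragment of a single library is not known, so no counting interval is given.

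The partners of the channel differed in opposite directions. *Lhfpl5* (chr17:28575719-28583593) was at 156 FPKM in the Lgr5+ population and at 214 FPKM in the Lgr6+ population, a log2 change of 0.45. *Tmie* (chr9:110866046-110880083) was at 17.3 and 9.02 FPKM, a log2 change of -0.87, so its Lgr5+ value was 1.91 times its Lgr6+ value. *Tmie* was the sole member with a lower value in Lgr6+ progenitors, and its FPKM was 0.111 times that of *Lhfpl5* in Lgr5+ progenitors and 0.0422 times in Lgr6+ progenitors. The FPKM of *Lhfpl5* was 148 times that of *Tmc1* in Lgr5+ progenitors and 9.26 times in Lgr6+ progenitors. Transcripts of *Lhfpl5* were thus far above those of *Tmc1* in both populations, with the smaller gap in Lgr6+ progenitors. *Tmie*, the other partner, was below *Tmc1*, at 23.1 FPKM, in Lgr6+ progenitors.

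The tip link cadherins differed by nearly the same amount. *Cdh23* (chr10:60302750-60696490) was at 10.5 FPKM in the Lgr5+ population and at 18.1 FPKM in the Lgr6+ population, a log2 change of 0.73. Its interval overlaps those of 2 other genes of the table, with which reads may be shared. *Pcdh15* (chr10:73821867-74649732) was at 9.85 and 17.4 FPKM, a log2 change of 0.76. The FPKM of *Cdh23* was 1.07 times that of *Pcdh15* in Lgr5+ progenitors and 1.04 times in Lgr6+ progenitors, so their ratio was nearly the same in both populations.

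Of the genes for the upper anchor, *Myo7a* (chr7:98051054-98119493) was at 19.3 FPKM in the Lgr5+ population and at 47.0 FPKM in the Lgr6+ population, a log2 change of 1.24. *Ush1c* (chr7:46195351-46238490) was at 142 and 190 FPKM, a log2 change of 0.41. The FPKM of *Ush1c* was 7.38 times that of *Myo7a* in Lgr5+ progenitors and 4.04 times in Lgr6+ progenitors. *Myo7a*, the protein product of which marks HCs in staining, was thus present as RNA in both sorted populations. The paper reported no Myo7a staining in isolated cells of either population, a measure of protein per cell and not of bulk RNA.

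*Espn* (chr4:152120876-152152207) had the highest FPKM of the 10 genes, 193 in the Lgr5+ and 260 in the Lgr6+ population, with a log2 change of 0.43. It stood at place 610 among the kept genes in Lgr5+ progenitors and at place 393 in Lgr6+ progenitors. *Loxhd1* (chr18:77281958-77442257) was at 12.7 and 43.2 FPKM, a log2 change of 1.69, the next largest after that of *Tmc1*.

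In order of FPKM, *Espn*, *Lhfpl5*, *Ush1c* and *Myo7a* were the highest genes in both populations, in this order. They were followed in Lgr5+ progenitors by *Tmie*, *Loxhd1*, *Cdh23*, *Pcdh15*, *Tmc2* and *Tmc1*, and in Lgr6+ progenitors by *Loxhd1*, *Tmc1*, *Cdh23*, *Pcdh15*, *Tmie* and *Tmc2*. Without a spread, no neighbors in these orders can be said to differ. *Espn*, *Lhfpl5* and *Ush1c* made up 87.2% of the summed FPKM of the 10 genes in Lgr5+ progenitors and 80.6% in Lgr6+ progenitors. Their ratios of Lgr6+ to Lgr5+ FPKM were close to each other, 1.35, 1.37 and 1.33. By the FPKM as listed, most genes at such levels were lower in Lgr6+ progenitors. Of the 1021 kept genes with a mean FPKM of at least 100, a limit chosen after the values were seen, 31.4% were higher in Lgr6+ progenitors by any amount and 7.84% by at least 1.5-fold. These shares were not computed under the other scalings. The FPKM of all genes in Lgr6+ progenitors summed to 83.3% of that in Lgr5+ progenitors.

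Beyond the 10 members, 41 other hair bundle genes of the list were found in the table, and 40 of them were kept. By the 1.5-fold threshold 21 of the 40 (52.5%) lay on the Lgr6+ side, where 28.5% of all kept genes lay. On the Lgr5+ side lay 2 of them, against 23.3% of all kept genes, and 17 lay between. By any amount, 34 of the 40 were higher in Lgr6+ progenitors, and the median log2 change was 0.67. Among these genes *Actg1* turned to the Lgr6+ side after quantile normalization, and *Actg1* and *Pls3* did so when both populations were scaled to the same sum of FPKM. In the Lgr6+ direction the changes were largest for *Ptprq*, *Pkhd1l1*, *Lcp1*, *Grxcr2* and *Strc*. *Ptprq*, which encodes a phosphatase of the shaft connectors near the base of the stereocilia, was at 3.42 FPKM in the Lgr5+ population and at 22.8 FPKM in the Lgr6+ population, a log2 change of 2.43. *Pkhd1l1*, which encodes a protein of the stereocilia coat, had 1.26 and 9.25, a log2 change of 2.18. *Grxcr2*, needed for bundle shape, had 13.1 and 58.5, and *Strc*, which encodes the stereocilin of the top connectors, had 4.16 and 18.3. *Lcp1*, which encodes an actin-bundling plastin also known from leukocytes, had 0.0364 and 3.43, and the macrophage markers given below differed in the same direction.

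The 2 genes higher in Lgr5+ progenitors were *Rdx* and *Actb*. *Rdx*, which encodes radixin, a linker of membrane and actin, was at 90.1 FPKM in the Lgr5+ population and at 36.8 FPKM in the Lgr6+ population, a log2 change of -1.27. *Actb*, for cytoplasmic actin, had 1541 and 712, a log2 change of -1.11. *Actg1*, for the other cytoplasmic actin, was at 1318 and 1151 FPKM. The 3 next lowest were *Fscn2*, *Clic5* and *Actg1*, with changes of -0.56, -0.35 and -0.20. *Actb*, *Actg1* and *Rdx* are used by most cells and are not particular to the bundle, and reads of the actin genes may be shared with their near-identical copies.

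By role, 3 genes of the ankle links were examined, and all 3 were higher in Lgr6+ progenitors, 2 of them by at least 1.5-fold. Over all kept genes, 28.5% passed 1.5-fold toward Lgr6+ progenitors and 23.3% toward Lgr5+ progenitors. *Gpr98*, the adhesion receptor now called Adgrv1, was at 1.47 FPKM in the Lgr5+ population and at 5.53 FPKM in the Lgr6+ population. The scaffold *Whrn* had 13.8 and 24.9, and *Pdzd7* had 38.2 and 54.6, a log2 change of 0.50. Of the 10 genes for tip elongation and row identity, 6 passed the threshold toward Lgr6+ progenitors and none passed toward Lgr5+ progenitors, with a median change of 0.72. Of the 8 genes for the actin core and its crosslinkers, 2 passed toward Lgr6+ progenitors and 1 toward Lgr5+ progenitors, with a median of 0.07. *Ush1g*, a further scaffold at the upper end of the tip link, had 1.33 and 2.39, and *Clrn1* had 16.1 and 40.9.

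Among other genes of the transduction complex, *Cib2*, a calcium-binding subunit, was at 776 FPKM in the Lgr5+ population and at 1051 FPKM in the Lgr6+ population, higher than any member. Its ratio of Lgr6+ to Lgr5+ FPKM, 1.35, was like those of *Espn*, *Lhfpl5* and *Ush1c*. *Cib3* was listed at 0.834 FPKM in the Lgr5+ and at 0 in the Lgr6+ population and was not kept. *Tomt*, which is needed to bring the channel subunits to the bundle, had 45.4 and 108, a log2 change of 1.24. *Atp2b2*, the calcium pump of the bundle, had 13.4 and 29.0, and *Piezo2* had 3.89 and 5.76.

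**Figure D3:**
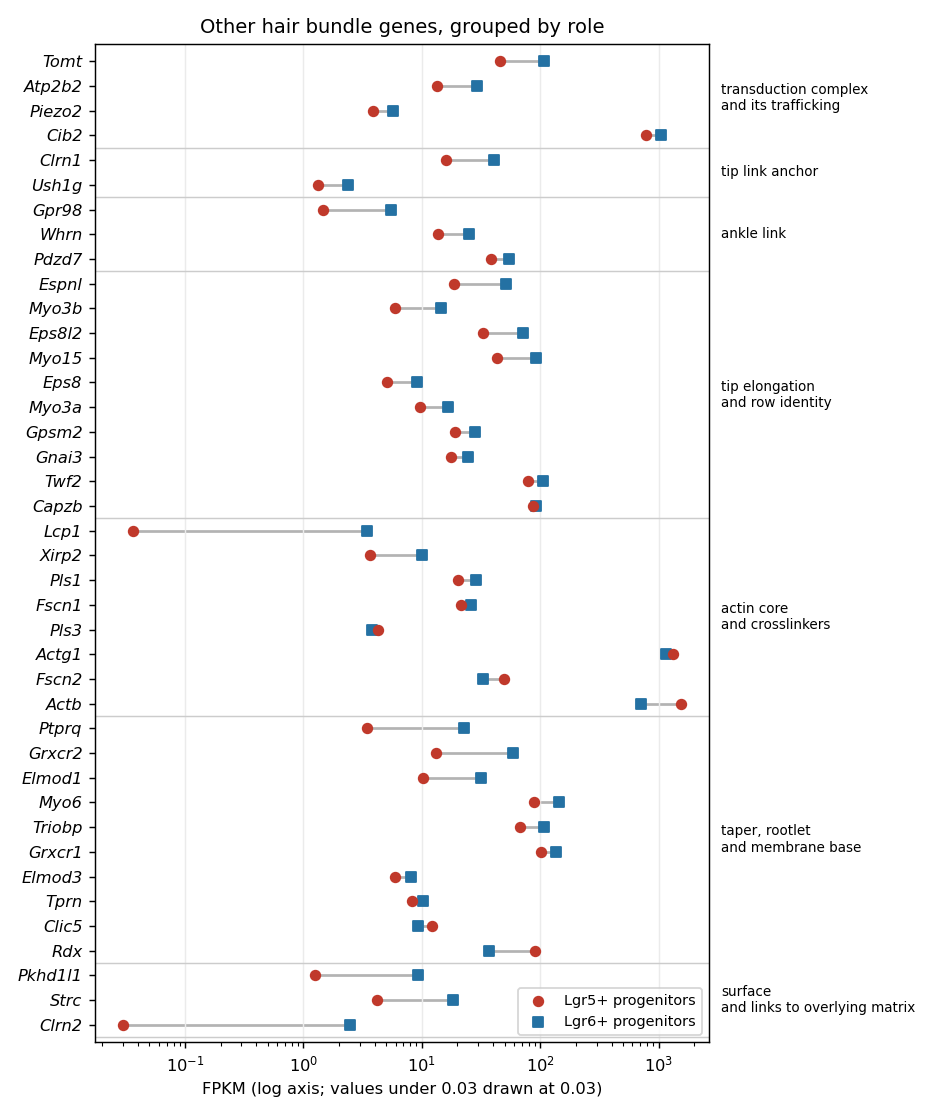
FPKM of the 40 other kept hair bundle genes on a log axis, in blocks by role, with a red circle for Lgr5+ and a blue square for Lgr6+ progenitors; values under 0.03, such as *Clrn2* in Lgr5+ progenitors, which is listed at 0, are drawn at 0.03. The blue square lies to the right for 34 of the 40 genes, *Actg1* and *Pls3* switch sides under the other scalings named above, and *Rdx* and *Actb* show the longest lines in the other direction.

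The marker genes of HCs went the same way as most members. Of 17 HC markers, all kept, 13 passed 1.5-fold toward Lgr6+ progenitors, where 28.5% of all kept genes lay. None passed toward Lgr5+ progenitors, where 23.3% of all kept genes lay. Their median log2 change was 1.35. *Pvalb* was the sole marker lower in Lgr6+ progenitors, and it turned under quantile normalization and under scaling to the same sum. The 17 markers summed to 893 FPKM in the Lgr5+ and to 1847 FPKM in the Lgr6+ population, and none was listed at 0. *Atoh1*, the factor that starts HC fate, had 30.9 and 36.4, a log2 change of 0.23. *Pou4f3*, which keeps HCs alive, had 31.0 and 49.0, and *Gfi1*, which acts beside it, had 19.5 and 55.5. *Otof*, for the calcium sensor of the HC synapse, had 41.6 and 171, a log2 change of 2.01, and *Slc17a8*, for the glutamate transporter of inner HC vesicles, had 2.18 and 4.30. *Myo6*, a myosin of the bundle base, had 88.7 and 144. The changes of *Espn*, *Lhfpl5* and *Ush1c* were above that of *Atoh1* and below that of *Pou4f3*, whereas that of *Loxhd1* lay between those of *Gfi1* and *Otof* and that of *Tmc1* above that of *Otof*. The part of HCs among the sorted cells in these values was not tested.

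Fewer SC markers than HC markers passed the threshold. Of 12 such genes, all kept and none listed at 0, 1 was at least 1.5-fold higher in Lgr6+ progenitors and 2 were so in Lgr5+ progenitors. Over all kept genes these shares were 28.5% and 23.3%. The SC markers summed to 4144 and 3805 FPKM, with a median log2 change of -0.25, which was 0.02 when scaled to the same sum of FPKM. Most of both sums came from *S100a1*, at 2959 and 3177 FPKM. By any amount 4 of the 12 were higher in Lgr6+ progenitors, against 51.7% of all kept genes, and 8 were lower. The 4 became 6 when scaled to the same sum of FPKM. *Hes5* had the largest change, -2.45, with 505 and 91.7 FPKM. *Sox2* was at 140 FPKM in the Lgr5+ population and at 54.8 FPKM in the Lgr6+ population. Of the genes whose reporters were used for the sort, *Lgr5* was listed at 9.65 FPKM in the library pool labelled Lgr5+ and higher, at 25.0 FPKM, in that labelled Lgr6+, and *Lgr6* was listed at 2.06 and 2.90.

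Markers of cells outside the sensory epithelium also differed between the populations. Macrophage markers summed to 3.88 FPKM in Lgr5+ progenitors, with 6 of the 10 genes listed at 0, and to 264 in Lgr6+ progenitors, with *C1qb* highest at 69.9. Not all of these markers were high in Lgr6+ progenitors. *Ptprc* and *Cx3cr1* were at 0.00814 and 0.681 FPKM there and were not kept, and *Csf1r* was at 1.29. Endothelial markers summed to 17.2 and 103, with *Emcn* highest at 29.1. All 8 passed 1.5-fold toward Lgr6+ progenitors, against 28.5% of all kept genes. After quantile normalization 7 of them passed, against 25.5% of kept genes. Schwann and glial markers summed to 119 and 314, and those of otic mesenchyme to 54.2 and 678. *S100b* was the highest of the former at 102 and *Igfbp7* of the latter at 277 in Lgr6+ progenitors. Of 5 kept erythroid markers the 4 globin genes passed 1.5-fold toward Lgr5+ progenitors, against 23.3% of all kept genes. *Hbb-bs* was highest at 333 and 84.0, and the list summed to 630 and 108. The other kept marker, *Alas2*, for an enzyme of heme synthesis, had 4.36 and 6.64, a log2 change of 0.51 that passed the threshold when scaled to the same sum of FPKM. The part of these cells in the values of the hair bundle genes was not tested.

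**Figure D4:**
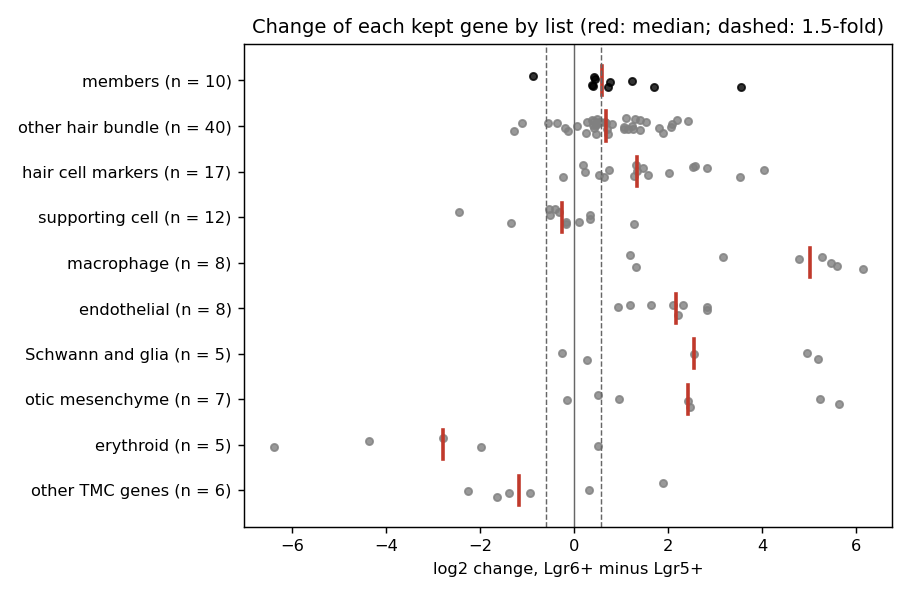
Change of each kept gene, as the difference in log2(FPKM + 1), Lgr6+ minus Lgr5+, for the 10 members and 9 further lists, with the number of kept genes in brackets, the median in red and 1.5-fold as dashed lines. The median of the members, 0.59, lies near that of the other hair bundle genes, 0.67, and below that of the HC markers, 1.35, while the median of the macrophage markers lies farthest to the right and that of the erythroid markers farthest to the left.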

How the data were processed

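EGFP+ cells of Lgr5+ and Lgr6+ progenitors were profiled by RNA-Seq, with 2 libraries per population in the labels, whereas the methods describe RNA split into 3 fractions. The authors amplified cDNA with the SMART-Seq v4 kit. Trimmomatic served for trimming, TopHat for mapping and Cufflinks with RefGene for the FPKM values that the authors deposited, and their versions are not given in the sources used here. The paper names mm9 and the submitters' processing notes name mm10. Of 22500 symbols shared with RefSeq, 98.8% overlapped the gene in GRCm38, and starts were read as counted from 0. The log2 fold changes, *p*-values and *q*-values of the table hold the authors' own comparison and were not used.

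Here, 1 was added to FPKM before log2, genes that reached 1 FPKM in either population were kept, and 1.5-fold was the threshold. The limma fit planned for separate samples could not be fitted to combined values. Libraries that share 1 RNA extraction, as the methods describe, would in any case measure technical spread only. The depth of each library is not given in the table. The steps of low FPKM values were sought in 7050 genes with 1 annotated transcript, after 200 bases were taken off its length. Each step is the median of the genes near the most frequent low value, 103 genes for Lgr5+ and 43 for Lgr6+ progenitors. The steps were 0.129 FPKM times kilobase for the Lgr5+ values and 0.0403 for the Lgr6+ values. They are 3.19-fold apart. Whether other values fall on multiples of these steps was not checked, so it is not known that low values are finer in Lgr6+ progenitors. Promoter windows came from RefSeq. The members and gene lists were chosen with earlier results of these data known. Genes were named by a rule that took all members, the 5 largest changes in each direction and the 3 highest genes among the other hair bundle genes together with their ankle link, anchor and channel partners, chosen HC and SC markers, the other TMC genes and the highest gene of each other marker list. A gene of the hair bundle list is not reported here and enters none of its counts. Calculations, tested on simulated data, used Python 3.11.15, numpy 2.4.6, pandas 2.3.3 and matplotlib 3.10.9.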

Additional observations from a re-analysis of the deposited data

How the results depend on the processing

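No paired analysis was possible because the table combines the libraries of each population, and for the same reason no replicate could be left out. The members' median log2 change of 0.59 was 0.69 with a pseudocount of 0.1, 0.72 as a ratio without a pseudocount and 0.73 with an FPKM of at least 5, which leaves out *Tmc2*. The 5 members past 1.5-fold toward Lgr6+ progenitors became 8 after quantile normalization, against 25.5% of kept genes, where *Espn*, *Lhfpl5* and *Ush1c* reached 0.65, 0.67 and 0.59. At 2-fold 3 members were past the threshold toward Lgr6+ progenitors, against 18.2% of kept genes, and 0 toward Lgr5+ progenitors, against 11.7%. Scaling to the same sum of FPKM gave 8 members toward Lgr6+ progenitors, against 37.2% of kept genes. The medians were then 0.85 for the members and 0.94 for the other hair bundle genes. This scaling shifted the median of all kept genes by 0.24 and the share of called genes that were higher in Lgr6+ progenitors from 55.0% to 69.3%. No member changed direction under any of the 9 alternatives. The pseudocounts, the filters and the 2-fold threshold could not have changed one, because they keep the order of the populations. Only the scalings could have. Scaling to the same sum of FPKM raised every Lgr6+ value, so it could have turned *Tmie* alone. The change of *Tmc2*, however, was only 0.016 after quantile normalization, and it passed 1.5-fold, at 0.66, as a ratio without a pseudocount. Of 89 values of single members under these alternatives, 78 stayed on their side of the threshold, 8 newly passed it and 3 no longer passed. Many of the 78 were fixed in advance, because the filters leave each value as it was and upper quartile scaling barely moved it. The new passes were those of *Espn*, *Lhfpl5* and *Ush1c* under the other scalings and of *Tmc2* with the smaller or no pseudocount. Without counts, the precision of low values such as those of *Tmc1* and *Tmc2* in Lgr5+ progenitors is not known.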

Other observations

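The other TMC genes, which encode relatives of the channel subunits that are not known as parts of the transduction channel of HCs, differed in both directions. Of 6 such genes, all kept, 4 passed the 1.5-fold threshold toward Lgr5+ progenitors and 1 toward Lgr6+ progenitors, with a median log2 change of -1.16. Over all kept genes, 23.3% passed toward Lgr5+ progenitors and 28.5% toward Lgr6+ progenitors. *Tmc4* was at 20.3 FPKM in the Lgr5+ population and at 10.2 FPKM in the Lgr6+ population, *Tmc6* had 19.4 and 5.59, and *Tmc5* had 11.5 and 1.61, a log2 change of -2.26. *Tmc3* had 2.37 and 0.288. *Tmc7* had 0.608 and 1.01, an order that turned under quantile normalization, and *Tmc8* had 0.131 and 3.21, a log2 change of 1.90. In Lgr5+ progenitors *Tmc4*, *Tmc5*, *Tmc6* and *Tmc3* were each listed above both *Tmc1* and *Tmc2*, and in Lgr6+ progenitors *Tmc1* was the highest of the 8 TMC genes. *Tmc6* and *Tmc8* are neighboring genes on the same chromosome and differed in opposite directions.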
